A study of Mus musculus with 9 samples.

Results

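The tRNA ligase complex was examined here through the transcripts of 5 of its genes. They are Ddx1, Rtcb, Fam98a, Fam98b and Zbtb8os, and each has a row under its symbol in both deposited expression tables, out of 24318 genes. The members were taken by name as genes of the complex, by a rule that uses no measured value. The choice was made with earlier results of these data known. RNA was sequenced from N2A cells, a mouse neuroblastoma line, 3 libraries for each of 3 conditions. The scramble group was transfected with a scramble siRNA and is labelled WT, the siDDX1 group received siRNA against Ddx1 and is labelled DDX1 knockdown, and the siEXOSC3 group received siRNA against Exosc3, a cap subunit of the RNA exosome, and is labelled EXOSC3 knockdown. All 9 libraries come from this single line, carry the treatment label Untreated, and received their siRNA with a cationic lipid reagent. Each condition had 3 separate culture plates, so the spread is between cultures of the same line.

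When a pre-tRNA holds an intron, the TSEN endonuclease cuts it out, and the ligase RTCB joins the exons that are left. RTCB works in a complex with the DEAD-box helicase DDX1, the FAM98 proteins and RTRAF, and archease, the product of Zbtb8os, keeps it active. The same ligase rejoins the Xbp1 mRNA after IRE1 has cut it in the unfolded protein response, and in neurons DDX1, RTCB and FAM98 proteins are also found in RNA transport granules.

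In NCBIM37, the sequence of mm9, the GENCODE vM1 annotation places the members on 5 chromosomes. Ddx1 lies at chr12:13226114-13256019 on the minus strand, Rtcb (there D10Wsu52e) at chr10:85401382-85420568 on the minus strand and Fam98a at chr17:75936426-75951286 on the minus strand. Fam98b lies at chr2:117075475-117097276 and Zbtb8os at chr4:129012939-129031791, both on the plus strand. All are protein-coding. Their annotated coding sequences encode 740 residues for Ddx1, 505 for Rtcb, 515 for Fam98a and 429 for Fam98b, and up to 167 for Zbtb8os, which has 4 annotated coding transcripts against 1 for each of the others. The stretch of Ddx1 that gives the helicase family its name is shown because Ddx1 is the transcript targeted by siDDX1, while the sequence of the siRNA was not used here. In these 30 bases of the spliced Ddx1 transcript the capitals mark the codons for D-E-A-D, residues 370 to 373.

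Ddx1 DEAD codons: ctggtcctgGATGAAGCAGATgggcttctc

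The stretch crosses a splice junction. Its first 18 bases are in exon 15 of 26 (chr12:13238251-13238268) and its last 12 in exon 16 (chr12:13237176-13237187), and 9 of the 12 motif bases fall in exon 15.

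Expression is given as FPKM, read fragments scaled to transcript length and library size, so that levels can be compared between genes per length. Each knockdown was compared with the scramble columns of its own table, because the authors scaled the tables separately, and siDDX1 was not tested against siEXOSC3. The 2 comparisons share the scramble libraries. A gene was called when the adjusted p of limma on log2(FPKM + 1) was under 0.05, among genes with a mean of at least 1 FPKM over the 6 libraries. All 5 members passed this filter in both tables. Relative depth, read from the value of a single fragment in low genes, ran from 0.827 to 1.2 of scramble replicate 1, and the absolute depth of each library is unknown. The estimate rested on 19.1% to 23% of the low genes compared in each library other than that replicate. Exosc3 was at 6.84 ± 0.836 FPKM in siEXOSC3 against 44.1 ± 1.56 in scramble (SD, n = 3), a log2 change of -2.53 (limma, adjusted p = 1.11e-05), and at 42.5 ± 2.22 in siDDX1. All 10 neuroblastoma markers used here had a mean of at least 1 FPKM. Of 10 glial, fibroblast and immune markers only Mbp and Cd74 reached that level, and the other cells' markers without Cd74 summed to between 2.66 and 3.56 FPKM in every library of both tables. Cd74 was called higher in both knockdowns (119.5 ± 27.0 FPKM in siDDX1 and 99.8 ± 27.0 in siEXOSC3, against 54.0 ± 10.0 and 54.5 ± 10.0 in scramble). Its siDDX1 call was lost without scramble replicate 1 or 3. Its siEXOSC3 call was lost without siEXOSC3 replicate 1 or scramble replicate 1 or 3. The neuroblastoma markers summed to 450 to 540 FPKM in siDDX1 against 471 to 533 in scramble, with 1 of 10 tested markers called higher, and to 648 to 712 in siEXOSC3 against 474 to 539, with 6 of 10 called higher. The marker called in siDDX1, Elavl4, lost its call without siDDX1 replicate 2 or any scramble library. Over all genes tested, 5.61% were called higher in siDDX1 and 16.7% in siEXOSC3. The part of these marker changes in the results below was not tested.

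In scramble cells the ligase and its helicase were among the more abundant transcripts. Ddx1 was at 129.6, 126.4 and 119.1 FPKM in scramble replicates 1, 2 and 3 of the siDDX1 table, and its mean lay above that of 94% of the genes tested. Rtcb followed at 111.0, 104.2 and 97.3 FPKM, and Zbtb8os at 101.6, 103.6 and 90.9 FPKM. Every Ddx1 value was above every Rtcb value, while the ranges of Rtcb and Zbtb8os overlapped. The FAM98 transcripts were lower, with Fam98a at 34.4, 33.3 and 33.1 FPKM and Fam98b at 33.3, 31.2 and 34.3 FPKM, and these ranges overlapped too. The scale of the siEXOSC3 table is slightly higher for the same scramble libraries (median ratio 1.01 in each of the 3), and the order was the same there.

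DDX1 depletion lowered Ddx1 and no other member passed the test. Ddx1, the helicase, was at 28.1, 28.7 and 34.8 FPKM in siDDX1 replicates 1, 2 and 3, far below the 119.1 to 129.6 FPKM of scramble. This was 24.4% ± 2.99 of the scramble mean (SD, n = 3), a log2 change of -2.01 with a 95% interval from -2.21 to -1.81 (limma, adjusted p = 9.53e-05), and the lowest log2 change of all 11104 genes tested. Since this is RNA from whole cultures, fewer cells with the transcript and less of it per cell cannot be told apart. Fam98a and Fam98b ranged from 28.1 to 33.4 FPKM in the same libraries, so that the lowest Ddx1 value lay just below their range, another within it and the highest above it.

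Rtcb, the catalytic ligase, was at 123.5, 115.1 and 106.3 FPKM in siDDX1, a range that overlapped that of scramble. Its log2 change was 0.14 with an interval from -0.04 to 0.32 (limma, adjusted p = 0.252). Fam98a was at 30.8, 28.1 and 33.4 FPKM and Fam98b at 30.5, 29.7 and 33.2 FPKM, each with a value inside the scramble range. Their log2 changes were -0.13 (-0.29 to 0.04, adjusted p = 0.278) and -0.08 (-0.23 to 0.08, adjusted p = 0.475). Zbtb8os, which encodes archease, was at 107.9, 110.8 and 118.5 FPKM, all above the scramble values. Its log2 change of 0.19 (0.02 to 0.35) did not pass the test over all genes (limma, adjusted p = 0.122). In fold terms the intervals ran from 0.976 to 1.25 for Rtcb, 0.817 to 1.03 for Fam98a, 0.852 to 1.06 for Fam98b and 1.02 to 1.27 for Zbtb8os, so that a change of any of these 4 as large as that of Ddx1 lay outside them. Among all genes tested in siDDX1, 5.61% were called higher and 5.03% lower, 10.6% in either direction, and of the members 0 were called higher and 1 lower, the targeted Ddx1 by limma. At an unadjusted limma p under 0.05, 1 was higher, Zbtb8os, and 1 lower. The share of all genes at that unadjusted threshold was not counted, here or for the lists below. The siDDX1 values lay above all scramble values for 17% of the genes tested and below them for 17.8%, and did so for 1 member each, Zbtb8os and Ddx1. Leaving out siDDX1 replicate 3 moved the number of genes called higher from 623 to 1818, yet the members called stayed at 0 higher and 1 lower without each of the 6 libraries in turn.

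**Figure D1:**
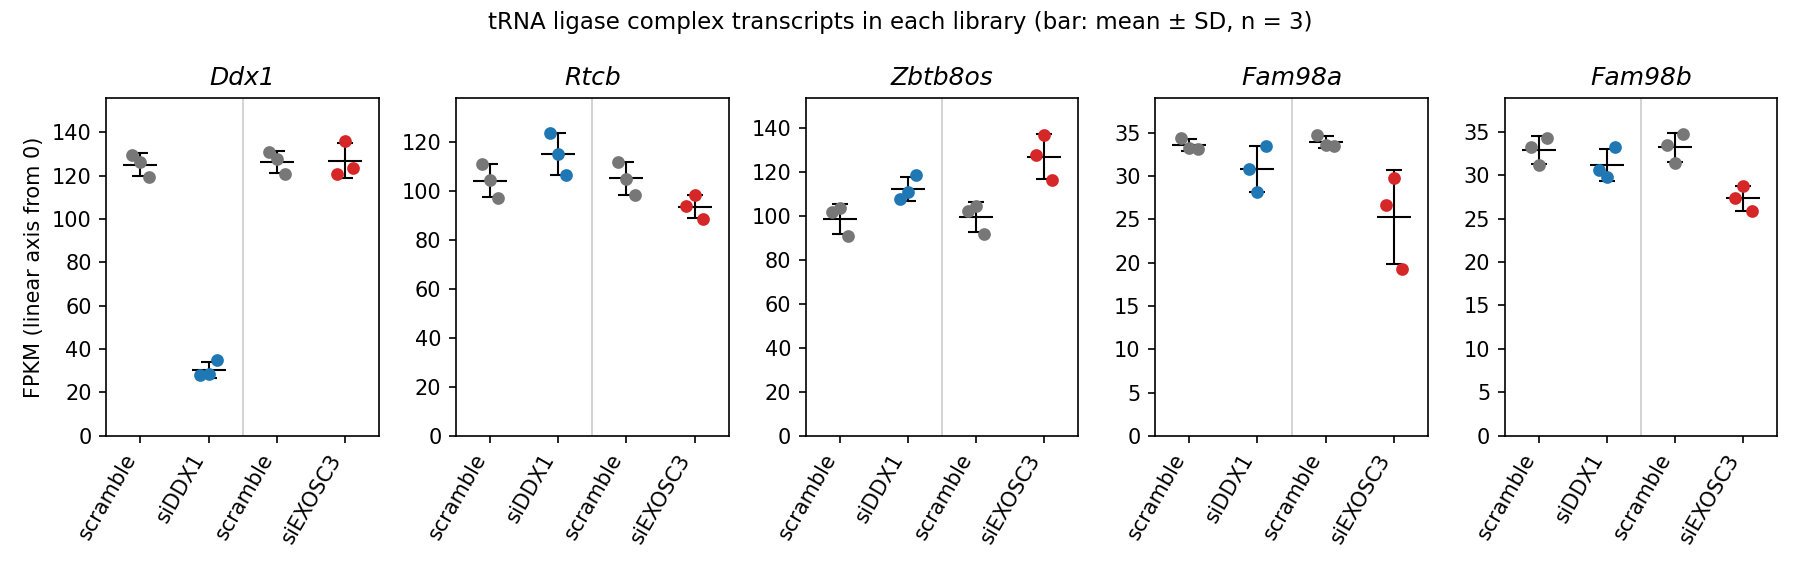
FPKM of the 5 members in each library, with the scramble libraries as scaled in the siDDX1 table (left of the grey line) and in the siEXOSC3 table (right). Points are libraries, bars are mean ± SD (n = 3), and Ddx1 falls to 30.5 FPKM in siDDX1 and is at 126.8 FPKM in siEXOSC3, where Zbtb8os lies above its scramble values and Rtcb, Fam98a and Fam98b lie below theirs.

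With EXOSC3 depletion the Ddx1 values overlapped those of scramble, while 2 members fell and 1 rose. Ddx1 was at 120.8, 136.1 and 123.6 FPKM in siEXOSC3 replicates 1, 2 and 3 against 130.7, 127.4 and 120.5 FPKM in scramble. Its log2 change was 0.006 with an interval from -0.16 to 0.17 (limma, adjusted p = 0.954), and the sign turned under quantile normalization (-0.0058), so no direction can be given. Rtcb was at 93.8, 98.2 and 88.6 FPKM against 111.8, 105.0 and 98.4 FPKM. All 3 siEXOSC3 values were below the scramble values, the closest pair by a narrow margin, and the log2 change of -0.17 (limma, 95% interval from -0.33 to 0) did not pass the test (adjusted p = 0.11, unadjusted 0.0499).

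Fam98a and Fam98b, which encode subunits of the complex, fell. Fam98a was at 26.7, 29.8 and 19.3 FPKM in siEXOSC3 against 34.7, 33.6 and 33.5 FPKM in scramble. Every siEXOSC3 value was lower, and replicate 3 was the lowest by far. This was 74.5% ± 15.9 of scramble, a log2 change of -0.43 (SE 0.137; limma, adjusted p = 0.0419). Fam98b was at 27.4, 28.8 and 25.9 FPKM against 33.5, 31.4 and 34.7 FPKM, again without overlap. It stood at 82.3% ± 4.31 of scramble, a log2 change of -0.27 (SE 0.0701; adjusted p = 0.0207).

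Zbtb8os rose. It was at 127.9, 136.9 and 116.2 FPKM in siEXOSC3 and at 102.4, 104.4 and 92.0 FPKM in scramble. The groups did not overlap, and the mean was 128% ± 10.4 of scramble, a log2 change of 0.35 (SE 0.0823; limma, adjusted p = 0.0155). Across all genes tested in siEXOSC3, 16.7% were called higher and 15.7% lower, 32.4% in either direction. Of the 5 members 1 was called higher and 2 lower, which with so high a background and 5 genes is no result about the complex as a group. The siEXOSC3 values lay above all scramble values for 23.8% of the genes tested and below them for 25.9%, and for 1 and 3 of the members.

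These 3 calls lie near the threshold. Of 14 alternatives, 8 ended the call of Fam98a, 5 that of Fam98b and 4 that of Zbtb8os, and those not named here are given in the closing section. The call of Fam98a was lost without a filter on low values (adjusted p = 0.0921), without the intensity trend (0.0539), without siEXOSC3 replicate 1 (0.0758) and without scramble replicate 1, 2 or 3 (0.122, 0.0974 and 0.107), and its log2 change shrank to -0.26 without siEXOSC3 replicate 3 (adjusted p = 0.0243). The calls of Fam98b and Zbtb8os were lost without siEXOSC3 replicate 1 (adjusted p = 0.0689 and 0.0573), scramble replicate 1 (0.0839 and 0.0515) or scramble replicate 3 (0.0794 and 0.0618), with the direction of each of the 3 genes the same in all 14 alternatives.

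The libraries were nondirectional, so reads of genes that overlap on opposite strands are not told apart. Zbtb8os shares 920 bases with Zbtb8a, which runs toward it from the other strand, and its GENCODE start is 325 bases from that of Rbbp4, a histone-binding chromatin factor. Zbtb8a and Rbbp4 were looked at after the values of Zbtb8os had been seen. Zbtb8a was at 3.44, 4.32 and 2.28 FPKM in siEXOSC3 and 3.51, 4.01 and 4.01 FPKM in scramble. Rbbp4 was at 86.3, 88.6 and 80.8 FPKM against 94.0, 94.8 and 91.3 FPKM (log2 change -0.13, limma adjusted p = 0.136). The part of reads from the other strand in the values of Zbtb8os was not tested. Rtcb overlaps 7570 bases of the Ascl4 locus on the other strand, whose mean was at most 0.106 FPKM in any group. No annotated gene lies within 5 kb of Ddx1 or Fam98a.

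Promoters are shown for the 3 members called in siEXOSC3, since 2 of them fell together and the third rose. Each is 300 bases long and spans the start of its gene in RefSeq (GRCm38.p6), 5′ to 3′ in the direction of the gene, and each matched NCBIM37 once. The table used holds promoters for 4 of the 5 members, all but Rtcb. Capitals mark CCGGAA, an extended form of the site of ETS factors, and CATGCGC, part of the site of NRF1, on either strand. CCAAT was searched as well. These motifs were picked after the sequences had been read, and the shorter core of the ETS site was not searched. For Zbtb8os the RefSeq start lies inside the gene as GENCODE vM1 places it, so its window begins downstream of the GENCODE start given above.

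Fam98a promoter, chr17:75951237-75951536, minus strand: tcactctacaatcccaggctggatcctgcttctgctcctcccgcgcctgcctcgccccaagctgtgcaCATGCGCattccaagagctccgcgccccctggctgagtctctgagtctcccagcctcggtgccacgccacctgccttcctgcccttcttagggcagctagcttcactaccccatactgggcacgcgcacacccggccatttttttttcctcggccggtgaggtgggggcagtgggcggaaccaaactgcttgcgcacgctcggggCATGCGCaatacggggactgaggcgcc

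Fam98b promoter, chr2:117075225-117075524, plus strand: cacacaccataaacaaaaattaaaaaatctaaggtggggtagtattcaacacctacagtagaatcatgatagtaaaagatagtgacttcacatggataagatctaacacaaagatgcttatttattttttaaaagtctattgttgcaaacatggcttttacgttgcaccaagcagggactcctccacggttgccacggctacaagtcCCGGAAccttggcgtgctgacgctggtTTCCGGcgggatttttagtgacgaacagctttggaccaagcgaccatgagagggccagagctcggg

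Zbtb8os promoter, chr4:129012962-129013261, plus strand: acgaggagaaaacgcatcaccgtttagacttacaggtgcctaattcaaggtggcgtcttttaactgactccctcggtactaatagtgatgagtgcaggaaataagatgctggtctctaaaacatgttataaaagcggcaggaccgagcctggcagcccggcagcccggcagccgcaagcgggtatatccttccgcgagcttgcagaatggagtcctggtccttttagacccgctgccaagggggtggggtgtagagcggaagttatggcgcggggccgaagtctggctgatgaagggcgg

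The Fam98a promoter holds CATGCGC at 2 places and no CCGGAA, and the Fam98b promoter holds CCGGAA at 2 places, on opposite strands, and no CATGCGC. The Zbtb8os promoter holds neither, and none of the 3 holds CCAAT. The Ddx1 promoter, not printed, holds CCGGAA at 2 places and neither of the other motifs. No 2 marked motifs overlap. Among 27025 promoters of the same length, 15.2% hold CCGGAA, 4.04% CATGCGC and 37.9% CCAAT. GC content was 64.3% for Fam98a, 44.3% for Fam98b and 55.3% for Zbtb8os, against a median of 52.7% over all promoters. The Fam98a and Fam98b promoters have none of these motifs in common.

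Ratios between members within a library do not depend on the scale of a table, and they show how the balance of the transcripts moved. In scramble there were 1.17, 1.21 and 1.22 Ddx1 per Rtcb, in FPKM. In siDDX1 the ratio was 0.227, 0.249 and 0.327, and in siEXOSC3 1.29, 1.39 and 1.39. The 3 groups did not overlap, with siDDX1 lowest and siEXOSC3 highest. The ratio of Zbtb8os to Rtcb was 0.916, 0.995 and 0.935 in scramble and 1.36, 1.39 and 1.31 in siEXOSC3, while the siDDX1 values of 0.873, 0.962 and 1.11 lay on both sides of scramble. In siEXOSC3 the mean rose from 0.948 ± 0.0411 to 1.36 ± 0.0415 (SD, n = 3). An exact permutation test on each of these ratios gave p = 0.1 for siEXOSC3 against scramble (two-sided), the smallest p that 3 libraries against 3 can give.

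The ratio of Fam98a to Fam98b stayed near equality. It was 1.04, 1.07 and 0.964 in scramble, 1.01, 0.945 and 1.01 in siDDX1 and 0.976, 1.03 and 0.745 in siEXOSC3, where replicate 3 stood apart. The ratio of Fam98b to Rtcb was 0.292, 0.293 and 0.292 in siEXOSC3, just below the scramble values of 0.3, 0.299 and 0.353, so relative to Rtcb the lower level of Fam98b was small. For Fam98a to Rtcb the siEXOSC3 values of 0.285, 0.303 and 0.218 were below the scramble values of 0.31, 0.32 and 0.34.

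**Figure D2:**
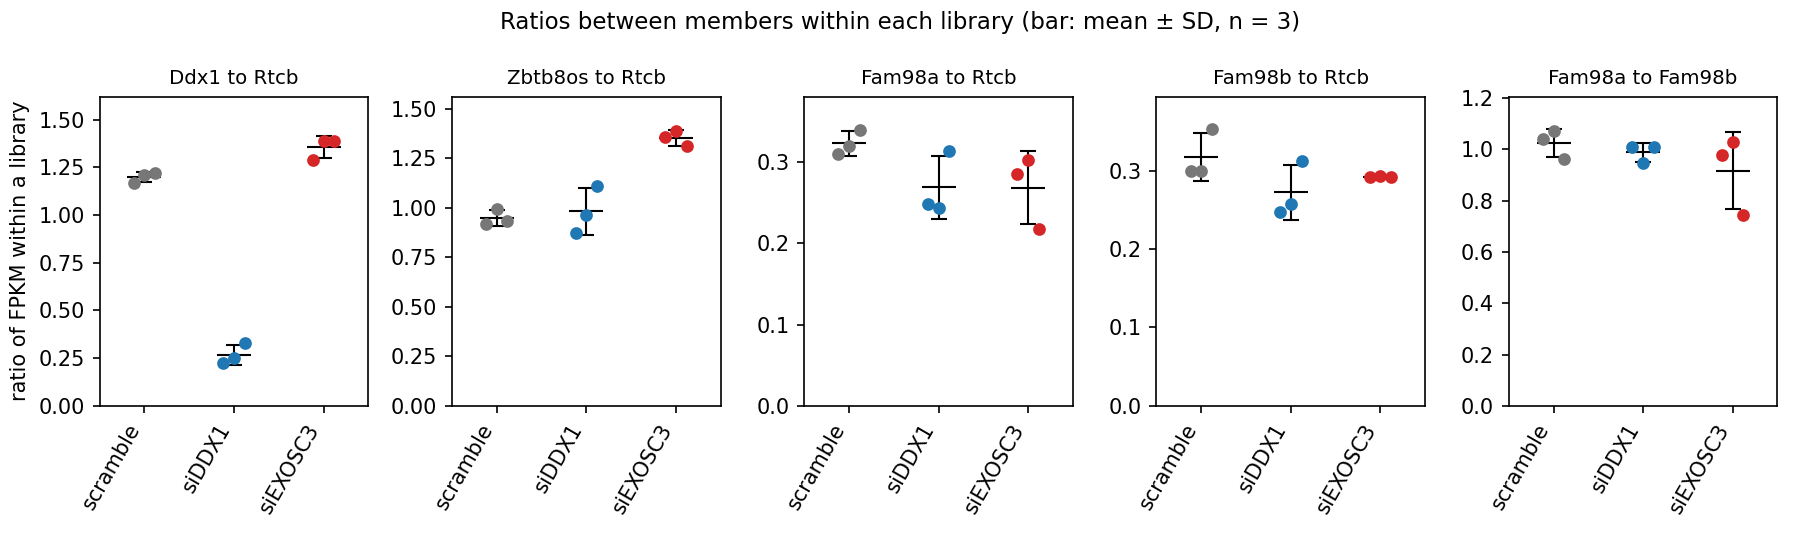
Ratios of FPKM between members within each library, with scramble from the siDDX1 table. Points are libraries, bars are mean ± SD (n = 3), and the ratio of Ddx1 to Rtcb drops to 0.268 in siDDX1, and Zbtb8os to Rtcb rises to 1.36 in siEXOSC3 from 0.948 in scramble.

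Of the other components of the complex, neither measured gene was called in either knockdown (limma; 0 at an unadjusted p under 0.05). Rtraf, an RNA-binding subunit, is listed under 2700060E02Rik. It was at 91.5, 103.9 and 90.1 FPKM in siDDX1 and 93.4, 95.6 and 84.5 FPKM in scramble (log2 change 0.06, limma adjusted p = 0.64). Its siEXOSC3 values of 94.1, 93.4 and 106.9 FPKM also overlapped scramble (0.09, adjusted p = 0.392). Fam98c, the third FAM98 gene, was the lowest in level at 5.51 ± 0.393 FPKM in scramble. It had log2 changes of 0.20 in siDDX1 (adjusted p = 0.179) and 0.28 in siEXOSC3 (adjusted p = 0.282), where it ranged from 5.03 to 9.95 FPKM. With 1 siEXOSC3 library left out its log2 change there ran from 0.049 without replicate 3 (adjusted p = 0.779) to 0.48 without replicate 2, where it was called (0.0268). Ashwin, a further subunit, was not matched to a row.

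Upstream of the ligase, Clp1, the kinase that binds the TSEN endonuclease, fell with EXOSC3 depletion. It was at 8.4, 9.41 and 6.64 FPKM in siEXOSC3 against 14.2, 13.4 and 13.0 FPKM in scramble. That is 60.4% ± 10.4 of scramble, a log2 change of -0.68 (limma, adjusted p = 0.00462), and the call held in all 14 alternatives. In siDDX1 all 3 Clp1 values, 11.6, 10.9 and 10.2 FPKM, were again below scramble, and the log2 change of -0.28 just missed the threshold (adjusted p = 0.0509), which it met in 3 of 14 alternatives. Tsen15, a structural TSEN subunit, was called lower in siEXOSC3 (34.9 ± 4.1 against 43.9 ± 3.96 FPKM, log2 change -0.32, adjusted p = 0.0401), a call lost in 8 of 14 alternatives, 4 of them with a library left out (siEXOSC3 replicate 1 or 3, scramble replicate 1 or 3). Tsen34, a catalytic subunit, had a log2 change of 0.08 and the structural Tsen54 of -0.32 (adjusted p = 0.111). In siDDX1 these 3 genes were not called, with log2 changes of 0.04 for Tsen34, -0.21 for Tsen15 and -0.09 for Tsen54. So 2 of these 4 genes, Clp1 among them, fell in siEXOSC3 and 0 in siDDX1, beside 15.7% and 5.03% of all genes. At unadjusted p under 0.05, siDDX1 held Clp1 (0.00553) and Tsen15 (0.0481), and both were called lower without siDDX1 replicate 3 (adjusted p = 0.0353 and 0.0307). Tsen54 was called lower in siEXOSC3 without replicate 2 of that group (0.045).

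Enzymes that act on the same kinds of RNA ends went both ways in siEXOSC3, where 3 of 5 were called, beside 32.4% of all genes tested. Angel2, a phosphatase for cyclic phosphate ends, fell (log2 change -0.31, limma adjusted p = 0.017), a call lost without scramble replicate 1, 2 or 3 (adjusted p = 0.0691, 0.0605 and 0.0511). Cnp, a cyclic nucleotide phosphodiesterase, and Trpt1, a tRNA phosphotransferase, rose by 0.32 (adjusted p = 0.0413) and 0.50 (adjusted p = 0.0467). Cnp lost its call in 8 of 14 alternatives, among them those without siEXOSC3 replicate 1 or 3 or scramble replicate 1 or 2 (adjusted p from 0.0784 to 0.132). Trpt1, at 2.41 ± 0.423 FPKM, lost it in 9 of 13, among them those without siEXOSC3 replicate 1, 2 or 3 or scramble replicate 1 or 2 (0.0569 to 0.154). The RNA cyclase gene Rtca had a log2 change of 0.003, and Pyroxd1, an oxidoreductase that protects the ligase, of -0.11 (adjusted p = 0.482). None of the 5 was called in siDDX1 (limma), where the log2 changes were -0.07 for Rtca, -0.16 for Angel2, -0.27 for Cnp, 0.11 for Trpt1 and 0.08 for Pyroxd1. Cnp alone had an unadjusted p under 0.05 there (0.0207), and without siDDX1 replicate 3 Angel2 was called lower (-0.24, adjusted p = 0.0127). All 3 siDDX1 values of Cnp lay below scramble, and all 3 of its siEXOSC3 values above.

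**Figure D3:**
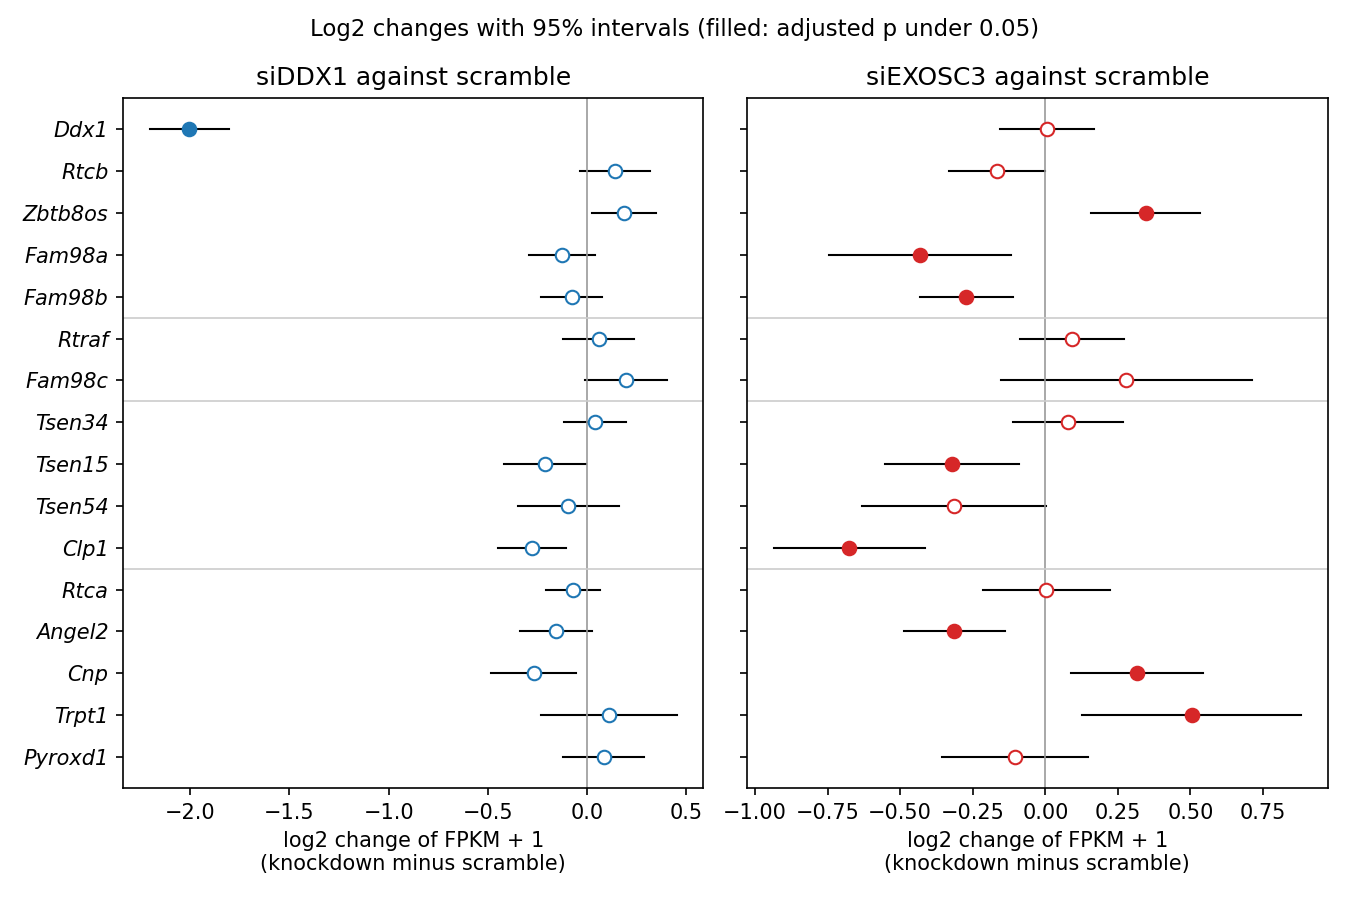
Log2 change of FPKM + 1, knockdown minus scramble, with its 95% interval, for the 5 members, 2 other components, 3 TSEN genes with Clp1, and 5 RNA end enzymes (grey lines part the groups, and the panels have different horizontal scales). Filled points have an adjusted p under 0.05: Ddx1 alone in siDDX1, and Zbtb8os, Fam98a, Fam98b, Tsen15, Clp1, Angel2, Cnp and Trpt1 in siEXOSC3.

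Among 15 genes of pre-tRNA end processing and export, 6 fell and 1 rose in siEXOSC3, 46.7% of the list beside 32.4% of all genes tested. The lower genes were Rpp30 and Pop4 of RNase P, the exportin gene Xpot, Trnt1, which adds the CCA end, Elac2, which trims the trailing end, and Thg1l, which adds a guanosine, and the higher one was Rpp21. Rpp30, an RNase P protein, was at 28.9 ± 4.75 against 42.2 ± 2.22 FPKM (log2 change -0.54, limma adjusted p = 0.00873). Xpot, the tRNA exportin, was at 95.7 ± 13.9 against 132 ± 3.08 FPKM (-0.47, adjusted p = 0.0105). Rpp21, another RNase P protein, was at 33.1, 31.8 and 32.5 FPKM against 22.2, 17.6 and 24.7 FPKM (0.59, adjusted p = 0.00716). Rpp30 and Rpp21 held in all 14 alternatives and Xpot in all but the threshold of 0.01. Trnt1, Elac2, Pop4 and Thg1l, with log2 changes from -0.47 to -0.34, each lost their call without siEXOSC3 replicate 1 (adjusted p from 0.0627 to 0.0987) and without scramble replicate 1 or 3 (0.0647 to 0.103), and all but Elac2 without scramble replicate 2 (0.0535 to 0.0803). The median log2 change of the list was -0.14 beside -0.01 over all genes tested. In siDDX1, where 13.3% of the list was called beside 10.6% of all genes, Rpp21 rose too (0.53, adjusted p = 0.0348) and Rpp25, an RNase P protein, fell (-0.65, adjusted p = 0.0304). Each of these siDDX1 calls was lost in 7 alternatives, and without siDDX1 replicate 1 or 2 or any scramble library the adjusted p was between 0.0566 and 0.118. Without siDDX1 replicate 3, Trnt1 and Pop1 were called lower as well, beside the 1706 genes called lower over all. With all libraries the list's median in siDDX1 was 0.01 beside -0.001 over all genes tested, and without siDDX1 replicate 3 it was -0.03.

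The Xbp1 transcript, whose unconventional splicing is completed by RTCB, rose in both knockdowns. It was at 76.3, 77.1 and 82.3 FPKM in siDDX1 against 63.1, 60.2 and 58.6 FPKM in scramble, a log2 change of 0.37 (limma, adjusted p = 0.0114). In siEXOSC3 it was at 72.3, 71.2 and 72.9 FPKM against 63.6, 60.7 and 59.3 FPKM, a log2 change of 0.23 (adjusted p = 0.0192). FPKM per gene does not tell the spliced form of Xbp1 from the unspliced form. The siDDX1 call was lost without scramble replicate 1 (adjusted p = 0.052) or 3 (0.0605), and the siEXOSC3 call without siEXOSC3 replicate 1 (0.0698) or scramble replicate 1, 2 or 3 (0.054, 0.0681 and 0.0722). Ern1, which encodes the nuclease IRE1 that cuts Xbp1, had log2 changes of 0.15 (adjusted p = 0.196) and 0.26 (adjusted p = 0.0893), with overlapping values in both. In siEXOSC3 it was called without replicate 2 of that group (0.38, adjusted p = 0.00495).

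Of the 15 genes in the list of IRE1 and XBP1 targets, which includes these 2, 2 rose and 0 fell in each knockdown. At an unadjusted limma p under 0.05, 5 were higher and 0 lower in each. The share of all genes at that threshold was not counted, so nothing is read from this number. Beside Xbp1, the other called gene was Sec24d, a coat protein of vesicles that leave the endoplasmic reticulum. It was at 15.2, 14.9 and 15.7 FPKM in siDDX1 against 10.4, 9.88 and 10.3 FPKM in scramble (log2 change 0.54, limma adjusted p = 0.00528). In siEXOSC3 it was at 15.4, 13.4 and 16.3 FPKM against 10.5, 9.96 and 10.4 FPKM (0.50, adjusted p = 0.00457). Both calls held in all 14 alternatives. The remaining 13 genes had log2 changes between -0.07 and 0.34 in siDDX1 and between -0.07 and 0.26 in siEXOSC3. The list's median was 0.20 in siDDX1 and 0.06 in siEXOSC3. In siDDX1 replicate 3 stood apart for several of these genes. Pdia6, a protein disulfide isomerase, was at 135.8%, 139.0% and 88.6% of the scramble mean in replicates 1, 2 and 3, and Dnajb9, a chaperone cofactor, at 127.3%, 139.2% and 94.6%, both named after their values were seen. Without siDDX1 replicate 3 the list held 9 genes called higher and 0 lower (median 0.29), beside 1818 genes called higher over all, and without siDDX1 replicate 1 or 2 it held 2 (medians 0.13 and 0.14). The 9 were Xbp1, Sec24d, Creld2, Dnajb9, Hyou1, Pdia6, Sdf2l1, Sec61b and Syvn1. Without siEXOSC3 replicate 2 there were 5 called higher in siEXOSC3, Ern1, Pdia6 and Syvn1 in addition to Xbp1 and Sec24d, while the genes called higher over all went from 1877 to 2379. With all libraries, the 13.3% of the list called in each knockdown stands beside the 10.6% and 32.4% of all genes given above.

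The neuronal RNA transport granule, in which DDX1 has also been found, was represented by 17 genes. In siDDX1 only Purb, a single-strand nucleic acid-binding protein, was called, and 0 were called higher. At an unadjusted limma p under 0.05 there were 1 higher and 6 lower, and the share of all genes at that threshold was not counted. Without siDDX1 replicate 3, 6 were called lower, Purb, Ddx3x, Fmr1, Kif5b, Pura and Sfpq, while the genes called lower over all went from 559 to 1706. Purb was at 23.2, 26.2 and 30.7 FPKM against 43.2, 41.5 and 45.1 FPKM in scramble, a log2 change of -0.69 (limma, adjusted p = 0.00755), and in siEXOSC3 it was at 44.0, 44.9 and 44.6 FPKM, within the scramble range. The Purb call was lost in 1 of 14 alternatives, without scramble replicate 3 (adjusted p = 0.0505). In siEXOSC3 3 granule genes rose, Kif5c, Kif5a and Stau2, and 5 fell, Kif5b, Alyref, Sfpq, Ddx3x and Nono. That is 47.1% of the list beside 32.4% of all genes tested, and the share in siDDX1 was 5.88% beside 10.6%. The kinesin motors split: Kif5c was at 83.4 ± 2.55 against 64.0 ± 1.9 FPKM (log2 change 0.38, adjusted p = 0.00395) and Kif5a rose by 0.33 (adjusted p = 0.0105), while Kif5b was at 60.6 ± 5.87 against 80.1 ± 2.79 FPKM (-0.40, adjusted p = 0.0086). Kif5c and Kif5b held in all 14 alternatives, and Kif5a (0.0509) and Alyref (0.0527) lost their call without scramble replicate 1 and Sfpq without scramble replicate 3 (0.0535). Stau2, Ddx3x and Nono lost theirs without siEXOSC3 replicate 1 or scramble replicate 1 or 3 (0.066 to 0.155), Ddx3x and Nono also without scramble replicate 2 (0.0515 and 0.143), and Stau2 and Nono without siEXOSC3 replicate 3 (0.0904 and 0.0797). The list's median log2 change was -0.11 in siDDX1 and -0.03 in siEXOSC3.

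**Figure D4:**
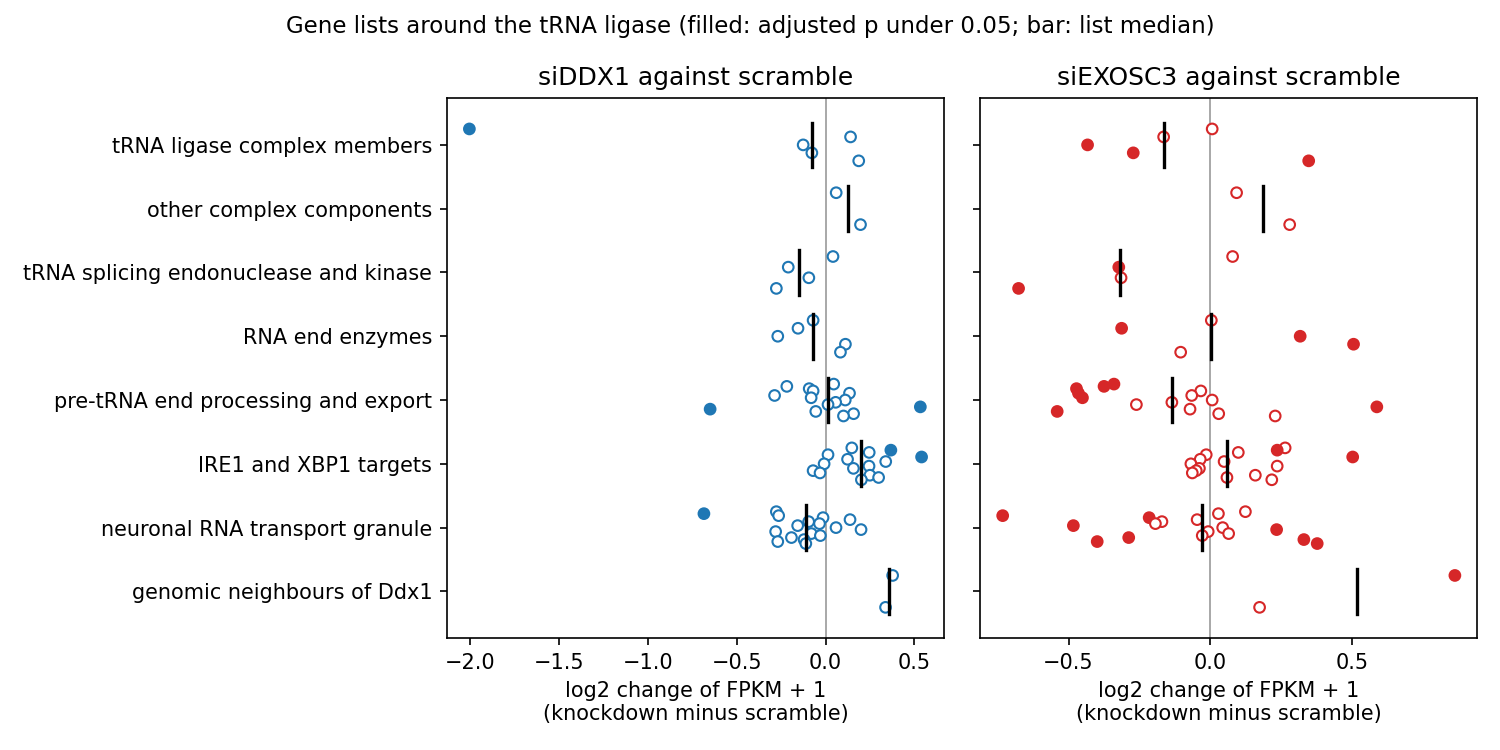
Log2 change of FPKM + 1, knockdown minus scramble, of every tested gene in the 8 lists (points, filled where the adjusted p is under 0.05) with each list's median (black bar), on different horizontal scales in the panels. In siDDX1 Ddx1 stands apart at -2.01, and in siEXOSC3 most of the called pre-tRNA genes lie below 0.

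Mycn and Nbas flank Ddx1 on chromosome 12, at 277.4 and 19.9 kb from its ends. Both lay above scramble in all libraries of both knockdowns, as did 17% of all genes tested in siDDX1 and 23.8% in siEXOSC3. Nbas, a vesicle transport factor, was at 12.9, 11.8 and 10.0 FPKM in siDDX1 against 9.2, 8.94 and 8.56 FPKM (log2 change 0.34, limma adjusted p = 0.0564). Mycn, the neuroblastoma oncogene, was at 4.68, 6.07 and 4.76 FPKM in siDDX1 against 3.75, 3.35 and 4.1 FPKM (0.38, adjusted p = 0.0679). Neither passed the limma test in siDDX1 (unadjusted p = 0.00683 and 0.00975), although both were called without siDDX1 replicate 3 (adjusted p = 0.00326 and 0.0225). Nbas was called in 3 of 14 alternatives there, median centring among them (0.0494). In siEXOSC3, where the values of Ddx1 between them overlapped those of scramble, Mycn was at 6.77, 7.0 and 9.4 FPKM against 3.78, 3.38 and 4.15 FPKM, a rise of 0.86 (adjusted p = 0.00299) that held in all 14 alternatives. Nbas was at 10.3 ± 0.682 against 8.98 ± 0.308 FPKM there (0.17, adjusted p = 0.114), and was called without siEXOSC3 replicate 2 (0.0438).

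Last, the genes whose pattern over the 6 libraries of a table was most like each member's were listed by Pearson's r of log2(FPKM + 1), as a description. In the siDDX1 table the closest to Ddx1 were Tmem64 (r = 0.997), Gtf3c4 (0.996) and Cnih1 (0.996). Their log2 changes of -0.50, -0.29 and -0.23 were far smaller than that of Ddx1, since r does not measure size. The closest to Rtcb were Rhox2a, Hint1 and Stt3a (0.991 to 0.993), to Fam98a Cpm, Tmem19 and 1810055G02Rik (0.991 to 0.994), to Fam98b Fhod1, Fitm1 and Spata2 (0.99 to 0.996) and to Zbtb8os Rbm17, Ankrd27 and Ufl1 (0.98 to 0.985). In the siEXOSC3 table they were Vps9d1, Fmr1 and Cpsf3 for Ddx1 (0.965 to 0.976), Zfp128, Zfp780b and Mmadhc for Rtcb (0.991 to 0.995), 9930104L06Rik, Myl6 and Srsf3 for Fam98a (0.996 to 0.997), Csf1, Foxred1 and Mtmr9 for Fam98b (0.995 to 0.998) and Usp33, B230209E15Rik and Tmem183a for Zbtb8os (0.988 to 0.989). No gene was on both lists of any member, and no member was on another's. With 6 points that share groups and libraries, r is given without a test.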

How the data were processed

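RNA-seq was carried out on ribosomal RNA-depleted, nondirectional libraries. Per the labels and methods, the authors aligned reads to mm9 with TopHat2 version 2.1.0 and ran Cuffdiff version 2.2.1. The deposited values are FPKM per gene and library, in a separate table for each knockdown with its scramble libraries. Which annotation and scaling Cuffdiff used is not given in the sources used here. Because FPKM hold no absolute depth, neither a count model nor counting intervals could be used.

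From these, log2(FPKM + 1) was modelled in limma (version 3.58.1, R version 4.3.3; lmFit, eBayes with an intensity trend, no covariates), in genes with a mean of at least 1 FPKM over a table's 6 libraries. Fold changes on this scale understate those of low genes. Two-sided p-values received the Benjamini-Hochberg adjustment across the whole of a table's tested genes, with a threshold of 0.05. Alternatives were a pseudocount of 0.1, no filter, a mean of at least 5 FPKM, quantile normalization, median centring, no trend, the replicate number as a block, a threshold of 0.01 and leaving out each library. On simulated data the model was tested with known changes: of 100 genes changed by a log2 of 1, it called 89 in the siDDX1 simulation of 11008 genes and 93 in the siEXOSC3 simulation of 11041 genes, and of 100 changed by 0.5 it called 55 and 68. The simulated errors were normal and independent between genes, and only genes above a minimum level were changed. These shares need not hold for low genes or where a whole library stands apart.

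The members and lists were chosen with earlier results of these data known. The genes named were the members and Exosc3, all genes of the short lists, and in longer lists the called genes, with values for at most 3 per list and comparison, besides Ern1 and Xbp1. The 3 most similar genes per member and table were also named. Further names were those of genes called only with a library left out, and of the markers Mbp, Cd74 and Elavl4. Pdia6, Dnajb9 and the nearby genes Zbtb8a, Rbbp4 and Ascl4 were added after values had been seen. Some items of the lists are not reported here. Coordinates and coding sequences came from GENCODE vM1 on NCBIM37, and promoters from RefSeq. Figures were drawn with matplotlib version 3.10.9.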

Additional observations from a re-analysis of the deposited data

How the results depend on the processing

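Of the members, Ddx1 in siDDX1 stayed called in all 14 alternatives (log2 change from -2.10 to -1.95), and Rtcb, Fam98a, Fam98b and Zbtb8os stayed uncalled with the same sign. In siEXOSC3, Rtcb stayed uncalled with the same sign, and Ddx1 turned sign under quantile normalization (-0.0058) and with libraries left out (-0.045 to 0.040). Fam98a (-0.43) lost its call without the filter on low FPKM, without the intensity trend and, with Fam98b (-0.27) and Zbtb8os (0.35), at an adjusted p under 0.01. Leaving out single libraries gave -0.56 to -0.26 for Fam98a, -0.31 to -0.23 for Fam98b and 0.29 to 0.41 for Zbtb8os. The members called lower, 2 in the reported fit, were 1 without the filter, 1 without the trend, 0 at 0.01 and 0 to 2 without single libraries, and the 1 called higher was 0 at 0.01 and 0 to 1 without single libraries.

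Same-numbered libraries did not deviate together throughout (correlations of their deviations -0.0121, 0.379 and 0.372 for siDDX1, and 0.0346, -0.31 and -0.126 for siEXOSC3), so the numbers were not taken as pairs. With the replicate block, Fam98a (-0.43, adjusted p = 0.0517) and Fam98b (-0.27, adjusted p = 0.0665) were not called, leaving 0 members called lower and Zbtb8os called higher (0.35, adjusted p = 0.0232). In siDDX1 the block also called Nbas (0.34, adjusted p = 0.0321) and Clp1 (-0.28, adjusted p = 0.0353), which the reported fit did not. Genes called higher in siDDX1 went from 623 to 1085 and genes called lower in siEXOSC3 from 1767 to 1059.

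Over all genes, those called in siDDX1 went from 623 higher and 559 lower to 387 and 330 without the filter and to 100 and 83 at an adjusted p under 0.01, and ranged from 95 to 1818 and 58 to 1706 without single libraries. Leaving out any of the 6 libraries moved both counts by over 1.5 times. The lowest counts came without scramble replicate 3 (95 higher) and scramble replicate 1 (58 lower), and the highest without siDDX1 replicate 3. In siEXOSC3 they went from 1877 and 1767 to 869 and 480 at 0.01 and ranged from 1027 to 2379 and 583 to 2508, lowest without scramble replicate 1 and highest without siEXOSC3 replicate 2, and moved by over 1.5 times without siEXOSC3 replicate 1 or scramble replicate 1 or 3 in both directions, and without scramble replicate 2 among the lower genes (932).

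Among the other named genes, none that was called changed sign in the 14 alternatives. Uncalled genes that did, each only with a library left out, were Rtraf (-0.0040 to 0.098), Trpt1 (-0.041 to 0.24) and Tsen34 (-0.0075 to 0.069) in siDDX1, and Rtca in siEXOSC3 (-0.053 to 0.11). With a mean of at least 5 FPKM, no value was had for the genes below it, among them Trpt1. The causes were not tested. The files hold no read numbers for the libraries, so counting error behind a value cannot be separated from the spread between the 3 libraries.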
